A study of Mus musculus with 158 samples.

Results

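Short hairpin RNAs (shRNAs, each built to knock down 1 gene) against 5 mouse genes of the extracellular matrix and its proteases were followed through an in vivo metastasis screen. The genes were Adam8, Adamts20, Col11a1, Pxdn and Tfpi2, and every hairpin that the data assign to 1 of them was taken. This gave 19 hairpins of the 1000 targeting hairpins of the screen, which cover 285 genes: 4 each against Adam8, Adamts20, Pxdn and Tfpi2, and 3 against Col11a1. They lay in 7 of 19 separately made pools of 51 to 54 targeting hairpins, and each pool also held 8 control hairpins. The measurement was the number of sequencing reads of each hairpin in genomic DNA, which stands for the share of cells that carry it. Transcript or protein levels of the 5 genes, and the depth of their knockdown, were not analysed here.

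The cells were PDA530 Met, a pancreatic cancer line of the mouse that was derived from a liver metastasis. Virus of each pool was used at an MOI (viral particles per cell) of 0.3, followed by 4 days in puromycin at 3 µg/ml. All groups therefore carried an integrated hairpin and had been through drug selection, and they differed in what followed: pellets taken before injection (day 0), cells kept in culture to day 28, and lung tumours taken 28 days after tail-vein injection into 3 mice per pool. Tumours of a mouse were pooled into 1 lung sample, and entry through the tail vein leaves out the earlier steps of spread from a pancreatic tumour. The labels give no separate source for the day 0 libraries of a pool, so the spread among them may be technical.

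The extracellular matrix is the protein network around cells, and metastasising cells must bind it, cut through it and rebuild it at a new site. ADAM8 is a membrane-bound protease of the ADAM family, which sheds proteins from cell surfaces, and ADAMTS20 is a secreted relative whose family cleaves proteoglycans such as versican. COL11A1 is a chain of type XI collagen, a minor fibrillar collagen that is widely used as a marker of the activated stroma of carcinomas. PXDN (peroxidasin) is a secreted haem peroxidase that forms the sulfilimine cross-links of collagen IV, the network collagen of basement membranes. TFPI2 is a secreted Kunitz-type inhibitor of serine proteases such as plasmin and is commonly described as silenced in tumours.

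Values are given as the percent share that a hairpin takes among the targeting reads of its pool in 1 library. Shares always add up to the whole, so a share can rise because its cells grew or because others were lost, and the data cannot tell these apart. Changes are differences of log2(CPM + 1) between group means. CPM stands for counts scaled to a common total of the pool's targeting reads, after TMM scaling. TMM is a factor meant to set most hairpins of 2 libraries level. A pool's median change could still differ from no change, as in pool 15 (-0.71, lungs against day 0). The changes were tested with limma, with Benjamini-Hochberg adjustment across every hairpin tested in the screen and calls at 0.05. Replicates are named by the letters of the labels. The 7 pools were read in 62 libraries, 21 at day 0, 20 of cultured cells and 21 of lungs. Total depth was 4646562 to 22155107 reads at day 0, 4753241 to 26068466 in culture and 244100 to 13887946 in lungs. Of the 20 culture libraries, 15 were named for 2 pools, and of their targeting reads only those of the pool in question were used. The counting error of a share is small at this depth except for hairpins with few reads, and PCR reads without molecular identifiers are not independent molecules.

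Some libraries stood apart and touch the results. Lung library 14A, with 2856785 targeting reads, had 19 hairpins at a share of 0.1% or more, against 47 and 42 in lungs 14B and 14C. In the pool of the Adamts20 hairpins (pool 1), 1 hairpin against Lama1, a laminin chain, held 57.1% to 66.6% of the reads in lungs and 22.0% to 23.2% at day 0, which leaves less for the other hairpins there. Lung library 1A of that pool was the shallowest, with 225640 targeting reads. Among day 0 libraries of pool 1, PCR repeats of 1 sample differed as much as separate libraries did (Pearson r across hairpins 0.9965 for the repeats, 0.9959 to 0.9986 between libraries). In pool 8 the repeats had r = 0.9978 and separate libraries 0.9766 to 0.9986. Among lung libraries the repeats of pools 1 and 8 were closer to each other (r = 0.9967 and 0.9993) than separate lungs were (0.9069 to 0.9449). In the culture libraries named for 2 pools, the control hairpins of both pools are counted together. Over the targeting reads of every pool named, controls stood at 21.8% to 24.0% at day 0, 18.2% to 19.4% in culture and 8.01% to 9.78% in lungs for pool 1, and at 77.4% to 78.7%, 52.6% to 61.2% and 74.96% to 83.7% for pool 4. Scaling by the controls, or by the deposited values, whose scale rests on them, therefore lowers a single pool's hairpins in these cultures by construction, and neither was used below to judge a change that involves culture.

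At day 0 the 19 hairpins spanned shares from 0.00299% to 6.86%, around the even share of 1.85% to 1.96% that equal representation would give in these pools. The rarest was TRCN0000031698 against Adamts20, the last of 52 hairpins of its pool in all 3 day 0 libraries. The most abundant were TRCN0000284502 and TRCN0000080032, both against Tfpi2. Over the 19, the median SD of log2(CPM + 1) among libraries was 0.12 at day 0, 0.34 in culture and 0.52 in lungs. For all 368 hairpins of the same pools these medians were 0.14, 0.39 and 0.68. The SD was larger in lungs than at day 0 for 18 of the 19 hairpins and larger in lungs than in culture for 16.

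In lung tumours, 5 of the 19 hairpins differed from day 0, a proportion close to that of the whole library (33.8% of 891 hairpins tested in either direction). Hairpins against Pxdn (TRCN0000251359), Tfpi2 (TRCN0000080032) and Adamts20 (TRCN0000031696) were higher, and hairpins against Pxdn (TRCN0000217715) and Adam8 (TRCN0000351178) were lower. The Adamts20 rise depended on the scaling, as its lung shares lay below those of day 0. The background was 14.7% for higher and 19.1% for lower calls. The scaled values of lungs and day 0 did not overlap for 12 hairpins, 9 higher and 3 lower, where 55.9% of all hairpins did not overlap (25.4% higher and 30.5% lower). The members' median change was 0.58, beside -0.13 over all hairpins. That median depended on the scaling: it was -0.33 with pool totals and 0.07 with the deposited values, beside -0.73 and -0.82 over all hairpins.

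After 28 days in culture, 13 of the 19 hairpins differed from day 0, beside 60.6% of the 945 hairpins tested in the library. Of these, 7 were higher (background 28.8%) and 6 were lower (background 31.9%). Culture and day 0 did not overlap for 14 hairpins, 8 higher and 6 lower, beside 67.8% of all hairpins (30.9% higher and 36.9% lower). The members' median change was 0.18 and that of all hairpins was -0.10. Between lungs and culture, 5 hairpins differed, 3 higher and 2 lower in lungs, beside 24.9% of 889 hairpins tested (11.6% higher and 13.3% lower). Lungs and culture did not overlap for 9 hairpins, 6 higher and 3 lower, beside 41.4% of all (20.1% higher and 21.3% lower), and the medians were -0.04 and -0.11. Both the culture and the lung changes are measured against the same day 0 libraries and are therefore not independent of each other.

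Hairpins of 1 gene often moved in opposite directions. In culture against day 0, 4 of the 5 genes had at least 2 called hairpins, and in 3 of these genes (Adam8, Adamts20 and Pxdn) the calls went both ways. The exception in that comparison was Tfpi2, with 2 hairpins higher and 0 lower. Across the library, 124 of 197 genes with at least 2 called hairpins were called both ways in culture (62.9%). In lungs against day 0, Pxdn was the 1 gene of the 5 with at least 2 calls, and these went both ways, as in 50 of 83 such genes of the library (60.2%). In lungs against culture, Pxdn and Tfpi2 each had 2 called hairpins, 1 in each direction, as 29 of 53 such genes of the library were called both ways (54.7%).

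Adam8 was targeted by 4 hairpins, 2 in pool 4 and 2 in pool 14. Its hairpins behaved differently from each other: TRCN0000351178 was called lower in culture and in lungs, TRCN0000031784 fell in culture and was higher in lungs than in culture, TRCN0000031786 rose in culture, and TRCN0000351148 was called in none of the 3 comparisons.

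TRCN0000351178 held 2.70%, 2.37% and 2.09% of the pool at day 0, 0.797%, 0.331% and 0.389% in culture, and 0.0213%, 0.200% and 0.645% in lungs A, B and C. All 6 later libraries lay below all 3 day 0 libraries, and the lungs differed widely among themselves. The log2 change was -1.51 in culture (SE 0.41, limma adjusted p = 0.00644) and -2.37 in lungs (SE 0.79, limma adjusted p = 0.0478). The lung call was marginal and stood in 12 of 23 settings. It was lost with edgeR (-1.95, adjusted p = 0.081) and DESeq2 (-1.56, adjusted p = 0.0641). It was also lost under all 3 other scalings: pool totals (-4.08, limma adjusted p = 0.06), deposited values (-3.68, limma adjusted p = 0.113) and control hairpins (-3.18, limma adjusted p = 0.203). The same held when lungs B, or day 0 A, B or C, were left out (-2.27 to -2.46, limma adjusted p from 0.123 to 0.159). Without lungs A, the library that stood apart, the change was smaller and was called (-1.77, limma adjusted p = 0.0205), and without lungs C it was -3.12 (limma adjusted p = 0.00395). Leaving out a letter removes it from every pool, and leaving out day 0 D, a letter that pool 14 lacks, also moved the adjusted p to 0.0505. The culture call was lost without day 0 A (-1.32, limma adjusted p = 0.0556).

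TRCN0000031784 gave the clearest contrast between culture and lungs among the Adam8 hairpins. Its share was 3.22%, 3.36% and 3.24% at day 0, fell to 1.14%, 0.701% and 1.69% in culture, and stood at 6.15%, 3.29% and 7.62% in lungs. Every culture library lay below every day 0 and lung library. The log2 change was -1.05 in culture (SE 0.25, limma adjusted p = 0.00631) and 2.58 between lungs and culture (SE 0.45, limma adjusted p = 0.00486), the fifth highest of 51 hairpins of the pool. Lungs against day 0 did not pass the test (0.91, SE 0.36, limma adjusted p = 0.102), but it did without lungs B (1.26, limma adjusted p = 0.00827) and in 2 of 23 settings in all. The lungs against culture call was lost without lungs C (1.82, limma adjusted p = 0.0653) or culture A (2.32, limma adjusted p = 0.0894).

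The second Adam8 hairpin of that pool, TRCN0000031786, moved the other way in culture. Its shares were 3.81%, 4.22% and 3.99% at day 0, 4.62%, 4.51% and 5.05% in culture, and 3.49%, 3.61% and 2.51% in lungs. The culture libraries lay above day 0, with a log2 change of 0.75 (SE 0.08, limma adjusted p = 6.05e-05), or 0.24 with pool totals (limma adjusted p = 0.0477). In lungs the change from day 0 was -0.14 (SE 0.20, limma adjusted p = 0.611). TRCN0000351148 of pool 14 held 3.63% to 4.81% at day 0 and 1.22% to 2.56% in culture, with no overlap by share. Its culture change was -0.46 (SE 0.36, limma adjusted p = 0.278), and it was called with pool totals (-1.29, limma adjusted p = 0.00133) and without culture A (-0.77, limma adjusted p = 0.0243). Its lung libraries were split, with 0.0360% in 14A and 3.04% and 4.45% in 14B and 14C, and the log2 change from day 0 of -0.74 (SE 1.31) turned to 0.73 without lungs A, with limma adjusted p of 0.695 and 0.056.

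All 4 hairpins against Adamts20 lay in pool 1, and all 4 passed the test in culture, 2 in each direction. TRCN0000031695 and TRCN0000031696 rose, and TRCN0000031697 and TRCN0000031698 fell. In lungs against day 0 only TRCN0000031696 was called, and in lungs against culture limma called 0 of the 4 (1 at an unadjusted p under 0.05, 0 with edgeR and 1 with DESeq2).

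TRCN0000031696 shows how the scaling enters. Its share was 2.00%, 2.06% and 2.14% at day 0, 2.68%, 2.70% and 2.75% in culture, and 1.38%, 1.96% and 1.64% in lungs. The lung shares were thus all below day 0, in libraries where the Lama1 hairpin held most reads. Relative to the other hairpins of the pool (TMM) it was higher, by 0.75 on the log2 scale in lungs (SE 0.13, limma adjusted p = 0.00674) and by 0.78 in culture (SE 0.07, limma adjusted p = 5.97e-05). With pool totals the lung change was -0.33 (limma adjusted p = 0.241) and with the deposited values 0.07 (limma adjusted p = 0.772). The lung call was also lost without day 0 A or B (0.75 both times, limma adjusted p = 0.0519 and 0.0527). It was kept with control hairpin scaling. In all, the lung change was called in 18 of 23 settings, with values from -0.33 to 1.02. Lungs against culture gave 0.29 with TMM (limma adjusted p = 0.293) and -0.72 with pool totals (limma adjusted p = 0.0291).

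TRCN0000031695 was a rare hairpin that rose in culture. Its share was 0.174%, 0.182% and 0.163% at day 0 and 0.305%, 0.352% and 0.503% in culture, with no overlap. The culture change was 1.52 (SE 0.16, limma adjusted p = 1.06e-04), the fourth highest of 52 in the pool. In lungs the shares were 0.0988%, 0.391% and 0.148% and the change was 1.14 (SE 0.39, limma adjusted p = 0.0694). Without lungs A it was 1.53 and without lungs B 0.84, both called (limma adjusted p = 0.00975 and 0.0438), and DESeq2 called it as well (1.40, adjusted p = 0.00423). With pool totals the change was 0.05 (limma adjusted p = 0.94) and with the deposited values 0.46 (limma adjusted p = 0.496), and it was called in 4 of 23 settings.

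TRCN0000031697 was lower by share in culture and in lungs. It held 2.65%, 2.69% and 2.56% at day 0, 0.639% to 0.763% in culture, and 0.572%, 1.14% and 0.354% in lungs. All later libraries lay below day 0. The culture change was -1.52 (SE 0.08, limma adjusted p = 1.48e-06), and the lung change of -1.02 (SE 0.37) did not pass (limma adjusted p = 0.0794). The lung change was called with pool totals (-2.10, limma adjusted p = 0.00681), with the deposited values (-1.70, limma adjusted p = 0.0211), and without lungs B (-1.20, limma adjusted p = 0.016) or lungs C (-0.62, limma adjusted p = 0.0236). Lungs against culture gave 0.82 (SE 0.36, limma adjusted p = 0.122), called without lungs C (1.03, limma adjusted p = 0.0198) and -0.20 with pool totals (limma adjusted p = 0.746).

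TRCN0000031698 was near the limit of what depth can show. It was read 543, 255 and 319 times at day 0, 54, 19 and 39 times in culture, and 2, 263 and 59 times in lungs. The 2 reads of lung library 1A give a share of 0.000886% with a 95% Wilson interval of 0.000243% to 0.00323% (counting error only), which reaches the day 0 shares of 0.00299% to 0.00412%. The culture change was -2.25 (SE 0.47, limma adjusted p = 0.0041). That call was lost with a pseudocount of 100 CPM (-0.30, limma adjusted p = 0.0633) and without any 1 of day 0 A, B and C (-2.16, -2.17 and -2.03, limma adjusted p from 0.0516 to 0.058). In lungs the change from day 0 was -0.17 (SE 0.68, limma adjusted p = 0.871). Against culture it was 2.27 (SE 1.53, limma adjusted p = 0.293), and DESeq2 called it (2.59, adjusted p = 4.52e-05).

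Of the 3 hairpins against Col11a1, 1 lay in pool 4 and 2 in pool 14. The pool 4 hairpin rose in culture, and limma called 0 of the 3 in lungs against day 0 (0 at an unadjusted p under 0.05, 0 with edgeR and 1 with DESeq2) and 0 in lungs against culture (1, 1 and 0). The largest single share of any of the 19 hairpins was nevertheless a Col11a1 hairpin in 1 lung library.

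That library was lung 14A, where TRCN0000366646 held 50.6% of the pool's targeting reads (95% Wilson interval 50.57% to 50.68%, counting error only) and TRCN0000366714 held 13.8%. They ranked first and second of 54 hairpins, and together they made up 64.4% of the library, against 3.28% and 3.18% in lungs 14B and 14C and 3.57% to 3.93% at day 0. TRCN0000366646 held 0.328% and 0.345% in lungs B and C, below its day 0 shares of 0.794%, 1.43% and 1.13%. Its change of 2.43 (SE 2.35, limma adjusted p = 0.453) therefore rested on 1 lung library, and without lungs A it was -0.74 (limma adjusted p = 0.146). In culture it held 0.469%, 2.40% and 0.946%, on both sides of its day 0 shares, with a change of 0.74 (SE 0.50, limma adjusted p = 0.213), which was called without culture A (1.26, limma adjusted p = 0.00132).

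TRCN0000366714 was above its day 0 shares of 2.78%, 2.50% and 2.71% in all 3 lungs, with 13.8%, 2.95% and 2.84%. Its lung change of 2.58 was the second highest of 54 in the pool but had an SE of 1.22 (limma adjusted p = 0.136). The size of this change depended on the TMM factor of lungs A. Scaled over all 3 groups, the 13.8% there stood at 1063170 CPM, against 35363 CPM for the 2.95% in lungs B. Without lungs A the change was smaller and was called (1.08, limma adjusted p = 0.00671), and without lungs C it was 3.33 (limma adjusted p = 0.0313). By share, lungs B and C lay just above day 0, so the size of the change without lungs A rested on the TMM scaling. The lung change was called in 3 of 23 settings and ran from 0.87 to 5.42 over them. In culture its shares were 1.43%, 1.40% and 1.46%, all below day 0, with a TMM change of -0.06 (limma adjusted p = 0.875) that was called with pool totals (-0.89, limma adjusted p = 0.00644). Lungs against culture gave 2.74 (SE 1.17, limma adjusted p = 0.0916), called without lungs B (3.46, limma adjusted p = 0.043) and by edgeR (4.16, adjusted p = 0.0398).

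TRCN0000091193, the Col11a1 hairpin of pool 4, rose in culture. Its share was 3.66%, 3.29% and 3.79% at day 0 and 7.58%, 6.71% and 7.53% in culture, where it ranked 3 of 51 in every library. The change was 1.54 (SE 0.09, limma adjusted p = 1.16e-06). In lungs the shares were 3.22%, 6.38% and 4.93% and the change from day 0 was 0.58 (SE 0.25, limma adjusted p = 0.121), which was called without lungs A (0.87, limma adjusted p = 0.00701) and in 2 of 23 settings in all. Lungs against culture gave -0.33 (limma adjusted p = 0.374), and -0.88 without lungs C (limma adjusted p = 0.0279).

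With TMM scaling, Pxdn had the hairpin with the largest fall in lungs among the 19 and also 1 of the 3 called higher there. With pool totals the Adam8 hairpin TRCN0000351178 had a lower value (-4.08, not called). In pool 12, TRCN0000217715 was lower than day 0 in culture and in lungs, and lower in lungs than in culture, while TRCN0000216702 rose in culture. In pool 19, TRCN0000251359 was higher in lungs than both at day 0 and in culture, and TRCN0000251358 fell in culture.

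TRCN0000217715 fell from day 0 both in culture and in lungs, which are parallel arms of the same length. It held 1.77%, 1.78% and 2.00% at day 0, 0.383%, 0.435% and 0.496% in culture, and 0.156%, 0.144% and 0.142% in lungs. The 3 groups did not overlap, and the mean share was 12.5-fold lower in lungs than at day 0. The log2 change was -1.58 in culture (SE 0.18, limma adjusted p = 2.26e-07) and -3.45 in lungs (SE 0.28, limma adjusted p = 1.38e-04), the fourth and the third lowest of 53 hairpins of the pool. The lung change lay between -3.65 and -3.03 under every alternative run and stayed below 0.05 in each. Lungs against culture gave -1.73 (SE 0.41, limma adjusted p = 0.011), and that call was lost without culture C (-1.61, limma adjusted p = 0.097).

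The companion hairpin TRCN0000216702 did not follow it. Its share was 2.46%, 2.37% and 2.42% at day 0, 3.33%, 2.55% and 3.56% in culture, and 4.56%, 3.02% and 2.88% in lungs. Culture and lungs both lay above day 0 with no overlap. The culture change was 0.87 (SE 0.16, limma adjusted p = 1.32e-04), and the lung change of 0.70 (SE 0.26) did not pass (limma adjusted p = 0.061), but was called without lungs B (0.80, limma adjusted p = 0.0417) or lungs C (0.89, limma adjusted p = 0.0219), and in 3 of 23 settings in all. Between the same 2 groups, the 2 Pxdn hairpins of pool 12 thus had changes of -3.45 and 0.70.

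TRCN0000251359 became the most abundant targeting hairpin of pool 19 in all 3 lungs. Its share was 4.72%, 4.29% and 5.46% at day 0, where it ranked seventh, ninth and sixth of 52, and 13.2%, 14.1% and 18.7% in lungs A, B and D. In culture it held 1.83%, 3.06% and 2.87% in the libraries named for pools 18 and 19, and 6.02% in 19D, the library named for pool 19 alone. The lungs lay above every day 0 and culture library, and the mean share was 3.18-fold that of day 0. The log2 change was 1.98 against day 0 (SE 0.24, limma adjusted p = 0.00231) and 1.99 against culture (SE 0.42, limma adjusted p = 0.00341), the latter the second highest of 52 in the pool. In culture the change from day 0 was -0.04 (SE 0.29, limma adjusted p = 0.915). The lung change against day 0 lay between 1.59 and 2.12 under every alternative run, and its largest adjusted p was 0.0154.

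TRCN0000251358 was much rarer and varied most among the Pxdn hairpins. It held 0.149%, 0.119% and 0.215% at day 0, 0.0283%, 0.00919% and 0.00497% in the 3 shared culture libraries and 0.0445% in 19D. All culture libraries lay below day 0, with a change of -2.75 (SE 0.86, limma adjusted p = 0.019), the second lowest of 52. This call was lost without culture B (-2.45, limma adjusted p = 0.0528), day 0 A (-2.76, limma adjusted p = 0.0525) or day 0 D (-2.55, limma adjusted p = 0.0619). The lungs were split, with 0.0915%, 0.00295% and 0.273%, and the change of -1.56 (SE 1.71, limma adjusted p = 0.52) turned to 0.42 without lungs B (limma adjusted p = 0.597).

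Tfpi2, the protease inhibitor of the set, was targeted by 2 hairpins in pool 8 and 2 in pool 15. In culture 2 of the 4 rose and none fell past the test. In lungs TRCN0000080032 was higher than at day 0 and in culture, whereas TRCN0000284502, which had risen in culture, was lower in lungs than in culture.

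TRCN0000080032 was the most abundant targeting hairpin of pool 8 in every lung. Its share was 5.70%, 5.77% and 6.02% at day 0, 5.40%, 5.36% and 6.60% in culture, and 12.9%, 11.7% and 12.3% in lungs. Day 0 and culture overlapped, and the 3 lungs lay above both and close to each other, with a mean share 2.11-fold that of day 0. It had ranked second, second and first of 52 at day 0, so its rank changed little while its share rose. The log2 change was 1.27 against day 0 (SE 0.14, limma adjusted p = 4.33e-04), the third highest of 52 in the pool, and 1.17 against culture (SE 0.17, limma adjusted p = 1.79e-04). The change against day 0 lay between 1.08 and 1.33 under every alternative run, with a largest adjusted p of 0.00446. In culture the change was 0.18 (SE 0.10, limma adjusted p = 0.162), or -0.02 with pool totals (limma adjusted p = 0.894). It was called without culture A (0.22, limma adjusted p = 0.0323) and with the replicate letter as a block (0.18, limma adjusted p = 0.0174), in a pool where same-letter libraries of culture and day 0 deviated together (correlations 0.79, 0.28 and 0.86).

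The other hairpin of pool 8, TRCN0000080031, rose in culture. Its share was 1.39%, 1.37% and 1.26% at day 0 and 2.50%, 2.74% and 2.64% in culture, with no overlap. The change was 1.17 (SE 0.10, limma adjusted p = 1.37e-05), the fifth highest of 52. In lungs the shares were 1.55%, 3.30% and 1.15%, which overlapped day 0, and the change was 0.63 (SE 0.35, limma adjusted p = 0.199). The Tfpi2 hairpins of pool 8 thus passed the test in different comparisons, 1 in culture and the other in lungs, and the difference between the hairpins was not tested.

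TRCN0000284502 of pool 15 rose in culture. Its share was 5.32%, 4.34% and 6.86% at day 0 (B, C and D), 11.1%, 7.34% and 10.8% in the culture libraries named for pools 14 and 15, 10.9% in 15D, and 2.63%, 1.31% and 1.52% in lungs. The 3 groups did not overlap by share. The log2 change was 1.48 in culture (SE 0.34, limma adjusted p = 0.00445), the fourth highest of 54, and -2.31 between lungs and culture (SE 0.35, limma adjusted p = 0.00142), the eighth lowest of 52. Against day 0 the lung change was -0.65 (SE 0.30, limma adjusted p = 0.137), beside a median of -0.71 over the pool. It was called with pool totals (-1.64, limma adjusted p = 0.00552), with the deposited values (-1.19, limma adjusted p = 0.0131) and without lungs B (-0.83, limma adjusted p = 0.0466).

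TRCN0000271824, its companion, changed less. Its share was 4.06%, 4.13% and 3.36% at day 0, 2.91%, 4.11%, 3.47% and 3.55% in culture, and 2.46%, 1.84% and 2.47% in lungs. The lung shares were below day 0, but with TMM scaling the change was 0.21 (SE 0.19, limma adjusted p = 0.432), beside a median of -0.71 over the pool. With pool totals it was -0.78 and called (limma adjusted p = 0.0242), so its direction depended on the scaling. In culture the change was 0.47 (SE 0.22, limma adjusted p = 0.0913), and it was called without culture D (0.62, limma adjusted p = 0.0329).

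The screen also held 44 hairpins against 13 other genes of the matrix, its receptors, its proteases and their inhibitors, with membrane mucins counted in: Col5a1, Fn1, Hmcn1, Itga2, Lama1, Lama3, Muc1, Muc4, Plaur, Serpinb5, Timp1, Tnr and Vcan. In lungs against day 0, 36 of the 44 were tested, with 4 higher, 6 lower and a median of -0.24, beside 14.7% higher, 19.1% lower and a median of -0.13 over all hairpins. In culture against day 0, 40 were tested, with 17 higher, 11 lower and a median of 0.37, beside 28.8%, 31.9% and -0.10 over all. In lungs against culture, 36 were tested, with 1 higher, 7 lower and a median of -0.36, beside 11.6%, 13.3% and -0.11 over all. The largest falls in lungs were of TRCN0000088818 against Plaur, the urokinase receptor (-3.85, SE 0.67, limma adjusted p = 0.00305), and TRCN0000108855 against Muc1, a membrane mucin (-2.77, SE 0.40, limma adjusted p = 0.00429). Here too hairpins of 1 gene went apart: of the Lama1 hairpins, TRCN0000094205 was higher (2.57, SE 0.23, limma adjusted p = 8.47e-04) and TRCN0000094206 lower (-2.77, SE 0.50, limma adjusted p = 0.00841) in lungs than at day 0.

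For 4 of the hairpins called in lungs against day 0, the most alike hairpin of another gene in its pool was sought by Pearson r of log2(CPM + 1) over the pool's libraries, which share depth and TMM factors. TRCN0000251359 (Pxdn) was most like TRCN0000264861 against Ftsjd2 (r = 0.95 over 10 libraries), and TRCN0000217715 (Pxdn) was most like TRCN0000198891 against Spert (r = 0.92 over 9 libraries). TRCN0000080032 (Tfpi2) was most like TRCN0000093901 against Wbscr17 (r = 0.90 over 9 libraries), and TRCN0000351178 (Adam8) was most like TRCN0000328979 against Calu (r = 0.85 over 9 libraries). Each was the highest of 50 to 52 hairpins compared, and no test was made.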

How the data were processed

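The deposited tables give, per sample and hairpin, a scaled read signal made by the authors. BWA 0.5.9 is named in the submitters' processing notes, and the scaling, the genome build and the hairpins' sequences are not given in the sources used. Dividing a library's deposited signal by its lowest value, counted as 1 read, gave whole numbers for 27241 of 27241 values (100%, tolerance 0.01). Of 158 samples, 148 had values. The 7 pools used here come from 68 samples, 62 libraries once technical repeats were summed.

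The targeting reads of each pool were scaled to CPM with TMM (edgeR 4.0.16), and log2(CPM + 1) was fitted per pool over the 2 groups compared with limma 3.58.1 (trend, robust; R 4.3.3). A mean of at least 10 reads was required, and all 19 members passed that filter in each comparison. Benjamini-Hochberg adjustment ran across every hairpin tested in the screen. edgeR's quasi-likelihood test and DESeq2 1.42.0 on the recovered reads were alternatives, because the deposited unit is a scaled signal. The steps were tested on simulated data. The prior degrees of freedom of limma were 2.02 to 6.36 over the members' pools for lungs against day 0.

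The members and lists were chosen with earlier results of these data known. All hairpins of the 5 genes are named, with the most alike hairpin of each member called in lungs against day 0 (1 is not reported here) and, of the other matrix genes, at most the 3 largest changes past the threshold in each direction; Lama1 is also named where its hairpin dominates a pool. Other matrix genes were chosen by family name. RefSeq identifiers in the files matched the same symbols in RefSeq's table (GRCm38.p6) for all 5 genes. p-values measure the spread between these libraries, and intervals cover counting error only.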

Additional observations from a re-analysis of the deposited data

Results flagged for a closer look

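Among the 4 groups of 4 culture libraries in which a lone value could be tested, Tfpi2 hairpin TRCN0000271824 in culture 14/15B lay far from the other 3 on the scaled values (44206 CPM after TMM, against 36074 to 36709). By share it held 4.11% there, against 2.91%, 3.47% and 3.55%. Chance alone marks about 1 group in 20 in this way.

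Reads of some members also appeared in culture or lung libraries of pools that do not hold them, at levels above the highest day 0 value of such libraries. Tfpi2 hairpin TRCN0000080031 reached 0.000642% of all reads in culture 15D (41 reads) and 0.00295% in lungs 16D (185 reads), where day 0 libraries reached 3.24e-05%. Pxdn hairpin TRCN0000216702 reached 0.00732% in culture 16/17A (493 reads) and 0.00638% in lungs 17A (287 reads), where day 0 reached 0.00462%. Pxdn hairpin TRCN0000217715 reached 0.00104% in culture 16/17A (70 reads), where day 0 reached 0.00058%. Pxdn hairpin TRCN0000251358 reached 6.28e-05% in lungs 18A (5 reads), where day 0 reached 3.78e-05%, and Pxdn hairpin TRCN0000251359 reached 0.0241% in lungs 16D (1511 reads), where day 0 reached 0.0146%. The highest such level of any member was itself at day 0, with 0.0802% for Tfpi2 hairpin TRCN0000284502 in day 0 14B (4019 reads). None of these reads entered a comparison.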

How the results depend on the processing

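Of the 19 hairpins, 5 were called in lungs against day 0 (33.8% of all hairpins), 13 in culture against day 0 (60.6%) and 5 in lungs against culture (24.9%). With 1 replicate letter left out these counts were 3 to 9 (16.6% to 43.5% of all hairpins), 10 to 16 (50.7% to 64.0%) and 4 to 6 (16.0% to 28.0%). In lungs against day 0, DESeq2 called 8 (43.0%), and 7 (35.8%) were called without lungs 1A and 14A, chosen after seeing the data. In lungs against culture, control scaling called 8 (28.9%). Of 1251 values, 8 had the opposite sign with a call in at least 1 of the 2 settings: Adamts20 TRCN0000031696 with pool totals (-0.33 lungs against day 0, -0.72 lungs against culture) and control scaling (-0.17 in culture), Tfpi2 TRCN0000271824 in lungs with pool totals (-0.78), and in culture, with deposited values and control scaling, Adam8 TRCN0000031786 (-0.11, -0.24) and Tfpi2 TRCN0000080032 (-0.36, -0.58). A further 50 changed sign without a call in either setting, 29 lost and 40 gained a call, and the rest kept direction and side. In the 15 culture libraries named for 2 pools, control scaling sets 1 pool's hairpins against the controls of both, and the deposited values hold constant the named pool's reads plus 3 times the controls (in 5 of the 7 pools). Both lower culture and raise lungs against culture by construction there. In pools with such libraries, the values of these 2 scalings that involve culture therefore say nothing about a hairpin. Pool 12, whose 3 culture libraries were named for it alone, does not have this shift. The causes of the other changes were not tested.

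With the replicate letter as a block, 3 members were called in lungs against day 0 (25.9% of all hairpins), and Adamts20 TRCN0000031696 (0.75, limma adjusted p = 0.0519) and Adam8 TRCN0000351178 (-2.37, limma adjusted p = 0.0678) lost their calls. In culture Adamts20 TRCN0000031698 (limma adjusted p = 0.133) and Pxdn TRCN0000251358 (limma adjusted p = 0.0597) lost theirs and Tfpi2 TRCN0000080032 gained one (limma adjusted p = 0.0174). Same-letter deviations correlated over 0.1 in 7, 13 and 8 of 21 pairs (lungs and day 0, culture and day 0, lungs and culture). In the same order, 7 of 21, 9 of 15 and 3 of 15 samples matched their own letter best, where chance alone gives 1 in 3. Culture and day 0 stood above that level and the comparisons with lungs did not, so letters were not taken to pair libraries over the whole screen. Within single pools every same-letter pair was over 0.1 for culture and day 0 in pools 4 and 8, and for lungs and day 0 in pool 4, and there, among the members, the block changed only the call of TRCN0000080032 in culture.

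Over all hairpins, 301 calls in lungs against day 0 became 148, 154 and 160 without day 0 A, B and C, and 221 in lungs against culture became 145, 142 and 144 without culture A, B and C. The share of higher calls in lungs against day 0 was 43.5% (24.4% with pool totals, 30.5% deposited), in culture against day 0 47.5% (26.5%, 20.6%, and 16.1% with control scaling) and in lungs against culture 46.6% (60.6% deposited, 82.5% control scaling), the deposited and control values with culture carrying that shift. The median change in culture was -0.10 (-0.64, -0.89, -0.99), in lungs against day 0 with control scaling -0.57, and in lungs against culture -0.11 (-0.26 with pool totals, 0.30 with control scaling). Depth limits Adamts20 TRCN0000031698 most.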
